A study of Homo sapiens with 18 samples.

Results

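The genes of glycolysis and of the response to low oxygen were examined on Illumina bead arrays in HCC827 cells, an EGFR-mutant line derived from a human lung adenocarcinoma. The group was taken by name and holds 37 genes. A single-gene probe was listed for 35 of them, of 20046 genes with such a probe on the array, and these 35 are the members described here. CA9, a membrane carbonic anhydrase, and SLC16A3, a lactate exporter, were not analysed here.

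The series concerns epithelial to mesenchymal transition, in which epithelial cells lose adhesion and gain mesenchymal traits, reached by 3 routes, and its 18 arrays form 6 groups of 3. Cells exposed to the growth factor TGFB1 are set against parental cells, which carry no virus. Cells with the lentiviral vector pLX303 for V5-tagged SNAIL, a transcription factor encoded by SNAI1, are set against cells with a lacZ virus of the same vector. Cells with a pLKO1 short hairpin that targets the E-cadherin gene CDH1 (shCDH1) are set against cells with a non-target hairpin (shNT). TGFB1 was given for 30 days per the sample labels and for 72 hours at 10 ng/mL per the series text, and the arrays do not settle which. The labels give neither the oxygen tension nor the glucose supply of the cultures, nor the number of clones or hairpins behind a group, and all 6 groups come from a single cell line. Arrays of a group are numbered 1 to 3 in the titles but 1, 1 and 2 in the descriptions, and separate cultures are not named, so the p-values measure a spread between arrays that may be technical.

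In glycolysis, glucose enters the cell through SLC2A transporters and is converted by a chain of cytosolic enzymes to pyruvate, which is either reduced to lactate or passed to the mitochondria. When oxygen is plentiful, the prolyl hydroxylases EGLN1 to EGLN3 mark the alpha subunits of the hypoxia-inducible factor (HIF) for destruction through the VHL protein. When oxygen is scarce the alpha subunit is spared, pairs with ARNT, binds short hypoxia response elements in DNA and raises genes for glucose uptake, glycolysis, vessel growth and acid handling, EGLN3 among them. HIF is set mainly at the level of its protein, which these arrays do not measure.

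Levels below are normalized log2 intensities of each gene's brightest probe, and changes are log2 differences ± SE or folds between groups of 3 arrays. A gene was called at a limma adjusted p below 0.05, with adjustment over all 20046 genes. Median array intensity ran from 152 to 236, lowest on TGFB1 arrays 1 and 2, and log2 differences had a median SE of 0.128. CDH1, the gene aimed at by the hairpin, differed by -4.40 ± 0.12 in shCDH1 against shNT cells (adjusted p = 1.36e-20), while the SNAI1 probe did not show the virus (log2 difference -0.14 ± 0.14 in SNAIL against lacZ cells, adjusted p = 0.528), and whether that probe reads the V5-tagged construct is not known here. Of 10 lung adenocarcinoma epithelial markers, 7 fell with TGFB1, 9 with SNAIL and 7 with shCDH1 and none rose. The group means of the surfactant gene SFTPB lay near the array-wide median level of 6.82 or below. In parental cells all other markers of that list lay above this median, among them the lung markers NAPSA (13.30) and NKX2-1 (10.84). Of 6 mesenchymal markers, 5 rose with TGFB1, 4 with SNAIL and 3 with shCDH1 and none fell. Of all genes, 15.5%, 19.6% and 17.9% were called higher there. However, lacZ cells already exceeded parental cells in VIM by 2.59 ± 0.12 and in CDH2 by 4.20 ± 0.10. In shNT cells CDH2 averaged 8.17, against 6.36 in parental cells, and VIM averaged 10.45, against 10.27. Detection was not assessed, so a fold from a level near or under the array-wide median is limited by the lower signal. These are bulk RNA samples, so fewer cells of a type and less RNA per cell cannot be told apart.

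Most called members were higher with TGFB1 and lower with SNAIL and shCDH1. With TGFB1, 14 of 35 members rose and 2 fell, where 31.2% of all genes were called, 15.5% higher and 15.7% lower. With SNAIL, 6 rose and 15 fell, where 36.6% of all genes were called, 19.6% higher and 17.0% lower. With the CDH1 hairpin, 1 rose and 21 fell, where 33.9% of all genes were called, 3589 of 20046 higher and 3214 lower. The median change of the 35 members was 0.17 with TGFB1, -0.10 with SNAIL and -0.43 with shCDH1, beside all-gene medians of 0.00, 0.01 and 0.01. All 3 arrays of a group lay on one side of the 3 control arrays for 16 members with TGFB1 (41.5% of all genes), 21 with SNAIL (46.8%) and 25 with shCDH1 (39.2%).

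The calls with TGFB1 depended on the scaling of the arrays. Without normalization between arrays, 1 member rose and 3 fell with TGFB1, where 28.6% of all genes were called. The median of all genes was itself at -0.22 there. HK2, EGLN3 and P4HA2 were the 3 of the 16 called members that kept their call there. With SNAIL 14 of 21 calls were kept and with shCDH1 16 of 22. Relative to the all-gene median, 24 members lay higher with TGFB1 both with and without normalization, 10 with SNAIL and 8 with shCDH1. Directions below are therefore relative to the bulk of genes.

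**Figure D1:**
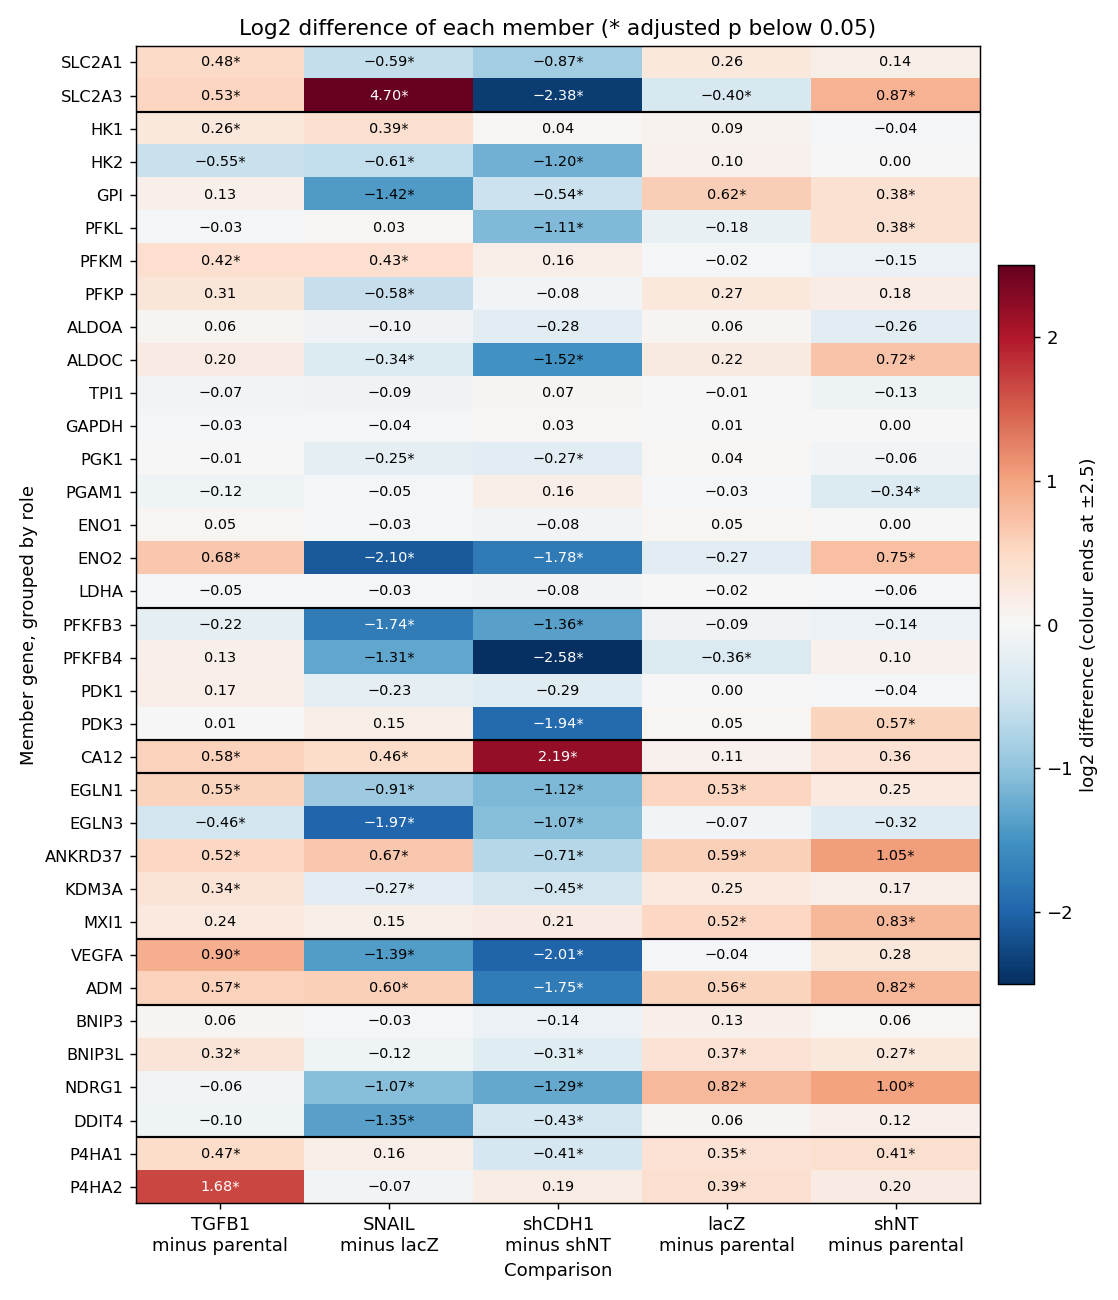
Log2 difference of each of the 35 members (rows, grouped by role) in the 3 main comparisons and in the 2 control viruses against parental cells (columns). Red is higher and blue lower in the group named first, and an asterisk marks an adjusted p below 0.05. The shCDH1 column is mostly blue, with CA12 as its single called rise.

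Taking the 3 routes side by side, CA12 was the single member called higher in all 3, a pattern held by 3.61% of all genes. HK2 and EGLN3 were called lower in all 3 (4.23% of all genes). These calls are those of the brightest probes. A dimmer CA12 probe passed with shCDH1 only, and a dimmer HK2 probe did not pass with TGFB1. In 10 members, 28.6% of those measured, calls pointed in opposite directions on 2 of the 3 routes, beside 11.4% of all genes. These were SLC2A1, SLC2A3, ENO2, VEGFA, EGLN1, BNIP3L, ADM, ANKRD37, P4HA1 and KDM3A. Without normalization between arrays, none of these 10 kept its TGFB1 call. Opposite calls were kept there only by SLC2A3 and ADM, between SNAIL and shCDH1. In 9 members no route gave a call, 25.7% beside 43.8% of all genes. By group mean, 20 members were lowest in shCDH1 cells, where 3630 of all 20046 genes were lowest, and 10 were highest in TGFB1 cells, where 3614 of all genes were highest. No member had its lowest group mean in TGFB1 or lacZ cells.

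The proximal promoters of members that fell with the CDH1 hairpin are shown because HIF binds a short core, ACGTG or GCGTG, in the DNA of its targets. RefSeq promoters of GRCh38.p14 were listed for 31 of the 35 members. The 4 without one, SLC2A3, VEGFA, NDRG1 and BNIP3L, all fell with shCDH1 and are missing from the counts below. Each stretch is the 250 bases before a start site, printed along the gene's own strand with each core, read on either strand, in capitals. A CACGTG, which is also the E-box bound by MYC and by other helix-loop-helix factors, holds the core on both strands. The 5 members with a single listed start and the largest falls with shCDH1 come first. GAPDH, a member whose brightest probe was called on no route, is last and was chosen after its values were seen.
PFKFB4 (chr3:48556804-48557053, minus strand): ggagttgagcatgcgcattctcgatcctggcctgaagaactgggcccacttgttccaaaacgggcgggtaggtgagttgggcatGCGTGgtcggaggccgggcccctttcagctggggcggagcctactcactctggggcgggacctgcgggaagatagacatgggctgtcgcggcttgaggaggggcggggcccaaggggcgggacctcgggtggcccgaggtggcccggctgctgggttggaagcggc
PDK3 (chrX:24465036-24465285, plus strand): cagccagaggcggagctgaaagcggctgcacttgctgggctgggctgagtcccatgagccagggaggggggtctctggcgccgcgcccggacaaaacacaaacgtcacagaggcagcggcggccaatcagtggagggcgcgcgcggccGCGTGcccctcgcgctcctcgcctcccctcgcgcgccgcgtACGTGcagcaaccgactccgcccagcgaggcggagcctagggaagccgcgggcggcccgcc
ENO2 (chr12:6914330-6914579, plus strand): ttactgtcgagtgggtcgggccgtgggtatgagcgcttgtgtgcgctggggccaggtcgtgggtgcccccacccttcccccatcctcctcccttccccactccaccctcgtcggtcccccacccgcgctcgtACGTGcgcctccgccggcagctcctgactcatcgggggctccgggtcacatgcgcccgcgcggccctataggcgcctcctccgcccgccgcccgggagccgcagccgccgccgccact
ADM (chr11:10304823-10305072, plus strand): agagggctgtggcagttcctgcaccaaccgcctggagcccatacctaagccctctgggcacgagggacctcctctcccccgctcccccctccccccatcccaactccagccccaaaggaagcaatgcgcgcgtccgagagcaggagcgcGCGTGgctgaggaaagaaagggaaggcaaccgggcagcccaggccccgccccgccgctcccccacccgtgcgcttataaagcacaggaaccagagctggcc
ALDOC (chr17:28576896-28577145, minus strand): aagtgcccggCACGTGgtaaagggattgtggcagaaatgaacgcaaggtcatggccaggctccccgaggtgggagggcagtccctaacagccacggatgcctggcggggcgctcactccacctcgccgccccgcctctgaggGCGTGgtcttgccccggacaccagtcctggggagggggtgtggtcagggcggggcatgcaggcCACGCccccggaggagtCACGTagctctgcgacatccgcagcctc
GAPDH (chr12:6535014-6535263, plus strand): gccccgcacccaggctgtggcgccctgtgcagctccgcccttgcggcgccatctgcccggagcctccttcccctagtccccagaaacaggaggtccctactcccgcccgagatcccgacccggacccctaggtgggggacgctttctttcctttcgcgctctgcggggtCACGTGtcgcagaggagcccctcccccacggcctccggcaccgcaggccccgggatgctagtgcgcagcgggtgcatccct

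PFKFB4, ENO2 and ADM each held 1 core, PDK3 held 2 and ALDOC 5, counting each strand of its CACGTG. GAPDH, not called by that probe, held a CACGTG as well. Counted by gene, 15 of 17 members that fell with shCDH1 (88.2%) and 11 of 13 that were not called (84.6%) had a core before at least 1 start, beside 47.4% of all genes. Counted by start, the shares were 18 of 20 (90.0%), 16 of 35 (45.7%) and 43.2% of all 35116 starts, since some members that were not called have many listed starts. A match is a run of letters and not a binding site, and the start used in these cells is not known.

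Both glucose transporter transcripts rose with TGFB1 and fell with shCDH1, and they parted with SNAIL. SLC2A3 encodes GLUT3, a high-affinity glucose transporter, and SLC2A1 encodes GLUT1, the common basal transporter. SLC2A3 had levels of 12.69, 12.69 and 12.60 in SNAIL cells, against 8.20, 7.71 and 7.98 in lacZ cells. It had 7.04, 6.73 and 6.79 in shCDH1 cells, against 9.12, 9.06 and 9.51 in shNT cells, and 8.86, 8.95 and 8.86 in TGFB1 cells, against 8.37, 8.26 and 8.45 in parental cells. The SNAIL arrays stood far above every other array and the shCDH1 arrays below all of them, and no altered group overlapped its control. The shCDH1 levels lay near the array-wide median, which limits the fold there. SLC2A3 was 25.9-fold higher with SNAIL (log2 difference 4.70 ± 0.13, adjusted p = 1.27e-20), 5.19-fold lower with shCDH1 (-2.38 ± 0.13, adjusted p = 3.44e-14) and 1.45-fold higher with TGFB1 (0.53 ± 0.13, adjusted p = 0.00235). Against shNT cells, in which SLC2A3 was 1.83-fold higher than in parental cells, the TGFB1 value was lower (log2 difference -0.34, adjusted p = 0.0441). SLC2A14 is a close paralog of SLC2A3, and whether the probe also reads it was not tested.

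SLC2A1 went the other way with SNAIL. Its levels were 12.91, 13.00 and 12.37 in TGFB1 cells, against 12.44, 12.31 and 12.08 in parental cells. They were 12.12, 11.83 and 11.89 in SNAIL cells, against 12.56, 12.47 and 12.59 in lacZ cells, and 11.48, 11.51 and 11.66 in shCDH1 cells, against 12.38, 12.41 and 12.46 in shNT cells. TGFB1 array 3 lay within the parental range, and the SNAIL and shCDH1 arrays lay below all of their controls. The log2 differences were 0.48 ± 0.12 with TGFB1 (adjusted p = 0.00238), -0.59 ± 0.12 with SNAIL (0.000207) and -0.87 ± 0.12 with shCDH1 (1.34e-06).

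**Figure D2:**
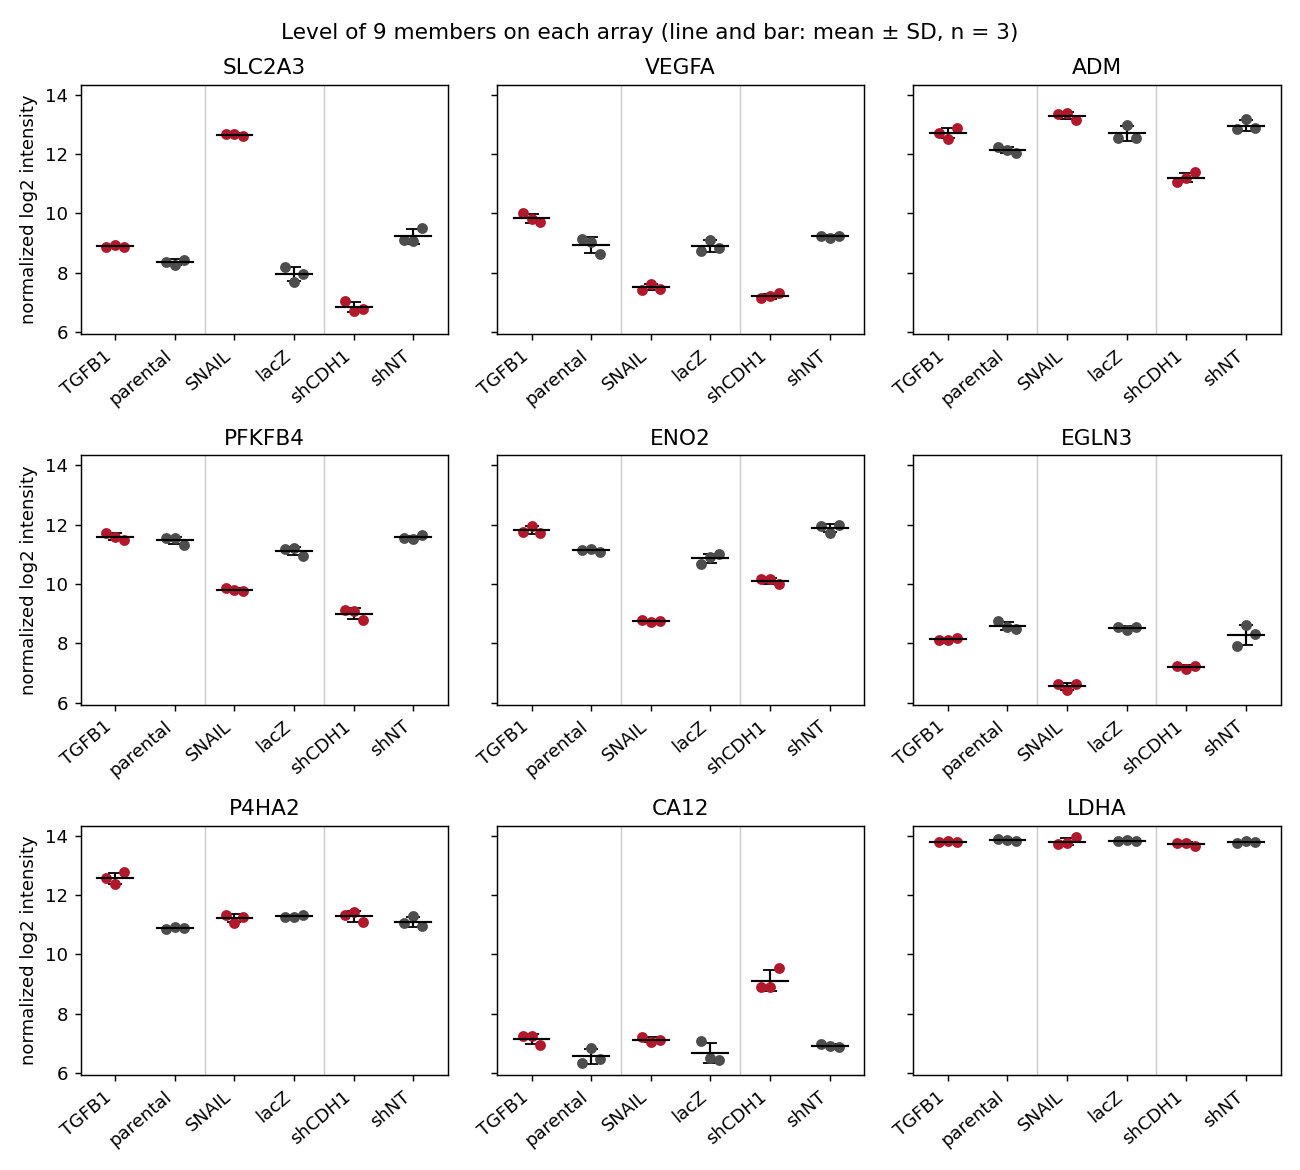
Normalized log2 intensity of 9 members on each of the 18 arrays, with the altered group (red) left of its control (grey) and bars for mean ± SD (n = 3). SLC2A3 stands between 12.60 and 12.69 in SNAIL cells, P4HA2 is raised in TGFB1 cells, CA12 is raised most in shCDH1 cells, and LDHA lies between 13.64 and 13.95 on every array.

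Of the 15 enzymes of the glycolytic chain, 3 rose and 1 fell with TGFB1, 2 rose and 6 fell with SNAIL, and 0 rose and 6 fell with shCDH1. That is 4, 8 and 6 of 15 called, beside 31.2%, 36.6% and 33.9% of all genes. The hexokinases, which trap glucose in the cell as its phosphate, split. HK2, the inducible isoform, had 10.40, 10.37 and 10.39 in TGFB1 cells, against 11.04, 10.94 and 10.83 in parental cells. It had 10.46, 10.52 and 10.30 in SNAIL cells, against 10.87, 11.24 and 11.00 in lacZ cells, and 9.69, 9.86 and 9.67 in shCDH1 cells, against 10.93, 10.98 and 10.90 in shNT cells. On each route the 3 arrays lay below all 3 controls. HK2 was 1.46-fold lower with TGFB1 (adjusted p = 0.000131), 1.53-fold lower with SNAIL (2.44e-05) and 2.29-fold lower with shCDH1 (3.71e-10). A dimmer HK2 probe (mean level 9.62) did not pass with TGFB1 (-0.29, adjusted p = 0.134 over all probes). That probe was lower with SNAIL (-0.43, 0.0117) and shCDH1 (-0.54, 0.00184). HK1, the constitutive isoform, changed by 0.26 ± 0.08 with TGFB1 (adjusted p = 0.0187), 0.39 ± 0.08 with SNAIL (0.000368) and 0.04 ± 0.08 with shCDH1 (0.794). Its TGFB1 call ended without TGFB1 array 1 (adjusted p = 0.126) or parental array 1 (0.0786).

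GPI, which turns glucose 6-phosphate into fructose 6-phosphate, fell with SNAIL and with shCDH1. Its levels were 10.77, 10.72 and 10.92 in SNAIL cells, against 12.14, 12.14 and 12.40 in lacZ cells. In shCDH1 cells it had 11.53, 11.49 and 11.33, against 12.09, 11.85 and 12.04 in shNT cells, and in TGFB1 cells 11.73, 11.91 and 11.58, against 11.82, 11.50 and 11.50 in parental cells. The SNAIL arrays were the lowest of all 18 and the TGFB1 arrays overlapped the parental ones. GPI was 2.68-fold lower with SNAIL (log2 difference -1.42 ± 0.11, adjusted p = 1.94e-11) and 1.46-fold lower with shCDH1 (-0.54 ± 0.11, 0.000204). The lacZ cells themselves had more GPI than parental cells (log2 difference 0.62 ± 0.11, adjusted p = 0.000125).

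The 3 phosphofructokinase isoforms, which catalyse the committed step of the chain, each followed another pattern. PFKL, the liver isoform, changed by -1.11 ± 0.12 with shCDH1 (adjusted p = 3.44e-08) and was called on neither other route. A dimmer PFKL probe, near the array-wide median level, did not show that fall (0.058, adjusted p = 0.838). PFKM, the muscle isoform, was higher by 0.42 ± 0.10 with TGFB1 (adjusted p = 0.00124) and by 0.43 ± 0.10 with SNAIL (0.000714). PFKP, the platelet isoform, changed by -0.58 ± 0.13 with SNAIL (adjusted p = 0.00051) and by 0.31 ± 0.13 with TGFB1 (0.0699, or 0.00718 with a difference of 0.46 without parental array 1).

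Of the enolases and aldolases among the members, the tissue-restricted ENO2 and ALDOC were called with SNAIL and shCDH1. The common forms ENO1 and ALDOA were called on no route. ENO3, an enolase gene outside the members, averaged higher than its control on all 3 routes. It had 9.81 in TGFB1 and 7.86 in parental cells, 8.99 in SNAIL and 7.89 in lacZ cells, and 8.55 in shCDH1 and 7.72 in shNT cells. ENO2, the neuronal enolase, had 11.76, 11.95 and 11.73 in TGFB1 cells, against 11.15, 11.17 and 11.08 in parental cells. It had 8.80, 8.74 and 8.75 in SNAIL cells, against 10.69, 10.89 and 11.00 in lacZ cells, and 10.15, 10.18 and 9.99 in shCDH1 cells, against 11.96, 11.71 and 11.98 in shNT cells. The TGFB1 arrays lay above all parental arrays, and the SNAIL and shCDH1 arrays lay well below all of their controls. ENO2 was 1.6-fold higher with TGFB1 (adjusted p = 7.28e-06), 4.29-fold lower with SNAIL (2.47e-15) and 3.42-fold lower with shCDH1 (1.04e-13). ENO2 was also 1.68-fold higher in shNT than in parental cells, and the TGFB1 value set against shNT cells was -0.070 (adjusted p = 0.663). ENO1, the common enolase, changed by 0.05 ± 0.07 with TGFB1, -0.03 ± 0.07 with SNAIL and -0.08 ± 0.07 with shCDH1, with adjusted p from 0.449 to 0.809.

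ALDOC, the aldolase best known from brain, changed by -1.52 ± 0.11 with shCDH1 (adjusted p = 1.91e-11) and by -0.34 ± 0.11 with SNAIL (0.0198). The shNT cells exceeded parental cells in ALDOC by 0.72 ± 0.11 (adjusted p = 4.38e-05). Its mean level was 10.13 in shCDH1, 11.65 in shNT and 10.93 in parental cells. The SNAIL call ended without any one of SNAIL arrays 1 and 3 or lacZ arrays 1 and 3 (adjusted p = 0.0808, 0.062, 0.0886 and 0.0805). ALDOA, the common aldolase, changed by -0.28 ± 0.14 with shCDH1 (adjusted p = 0.152), and was called there without shCDH1 array 1 (-0.41, adjusted p = 0.04) or shNT array 1 (-0.48, 0.00547). A dim ALDOA probe (mean level 6.97) was lower with SNAIL (-0.42, adjusted p = 0.0167 over all probes). PGK1, which makes the first ATP of the pathway, changed by -0.25 ± 0.08 with SNAIL (adjusted p = 0.0101) and -0.27 ± 0.08 with shCDH1 (0.0069), the second call ending without shNT array 2 (-0.17, 0.0859).

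TPI1, GAPDH, PGAM1 and LDHA, which stand at the triose, phosphoglycerate and lactate steps, were called on no route by their brightest probes. The largest difference of these probes was 0.16 ± 0.10, for PGAM1 with shCDH1 (adjusted p = 0.238). Dimmer probes of each gave a call, with adjustment over all probes. A GAPDH probe (mean level 13.33) was lower with SNAIL (-0.48, adjusted p = 1.38e-05), as was a TPI1 probe (13.24, with -0.33 and 0.00514). A PGAM1 probe (12.89) was higher with shCDH1 (0.47, adjusted p = 0.0305). For LDHA the 95% confidence interval of the difference ran from -0.17 to 0.08 with TGFB1, -0.16 to 0.10 with SNAIL and -0.20 to 0.05 with shCDH1. A dimmer LDHA probe (mean level 9.55) was lower with shCDH1 (-0.66, adjusted p = 0.000311 over all probes).

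The brightest probes of these enzymes were near the top of the range. The mean level of 10 members was above 13, the level of the brightest member rounded down (HK1, ALDOA, TPI1, GAPDH, PGK1, PGAM1, ENO1, LDHA, BNIP3 and DDIT4), where the brightest value of any probe was 14.19. Of these 10, 1 was called with TGFB1, 3 with SNAIL and 2 with shCDH1, against 15, 18 and 20 of the 25 dimmer members. Of the 435 genes above this level, members included, 75, 80 and 70 were called on the 3 routes, against 6170, 7260 and 6733 of 19611 dimmer genes. Whether the scanner or beads saturate there was not tested.

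**Figure D3:**
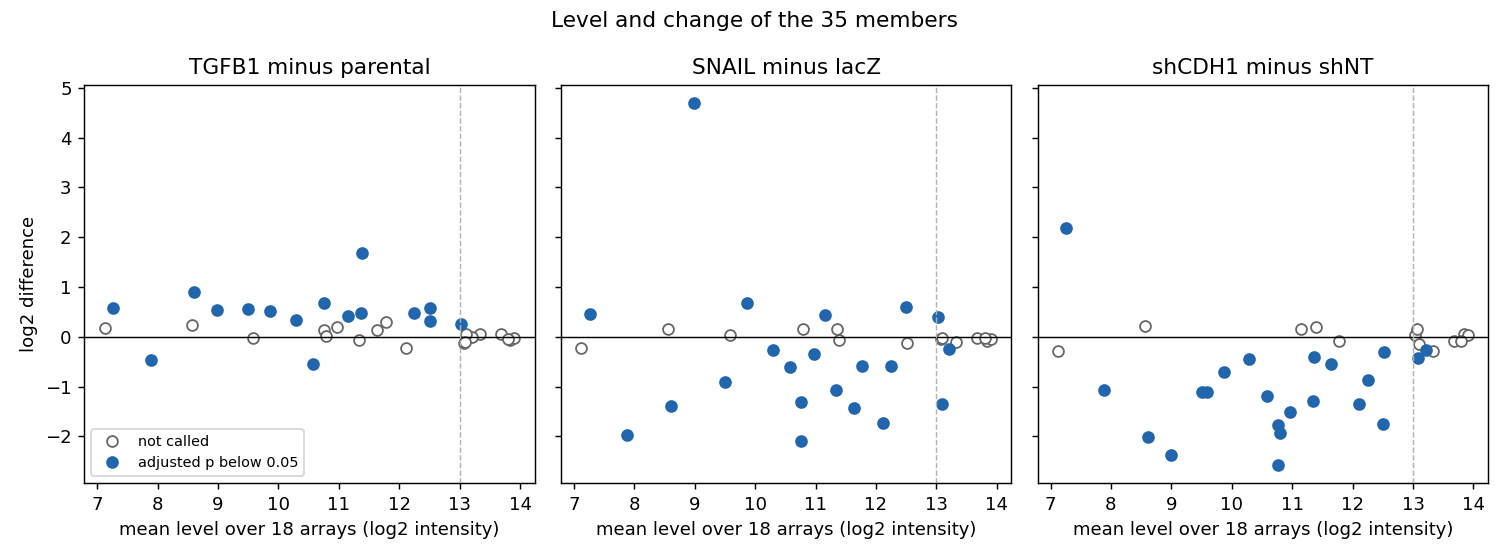
Log2 difference of each member (vertical axis) against its mean level over 18 arrays (horizontal axis, log2 intensity) in the 3 main comparisons. Filled points passed an adjusted p of 0.05, and the dashed line marks a level of 13, right of which 1, 3 and 2 of 10 members were called.

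Of the 4 regulators of glycolytic flux, none was called with TGFB1, 2 fell with SNAIL and 3 with shCDH1 (31.2%, 36.6% and 33.9% of all genes were called). PFKFB3 and PFKFB4 make and degrade fructose 2,6-bisphosphate, the main activator of phosphofructokinase. PFKFB4 had levels of 9.12, 9.08 and 8.78 in shCDH1 cells, against 11.56, 11.52 and 11.63 in shNT cells. It had 9.86, 9.80 and 9.76 in SNAIL cells, against 11.17, 11.21 and 10.96 in lacZ cells, and 11.72, 11.59 and 11.48 in TGFB1 cells, against 11.54, 11.54 and 11.33 in parental cells. The shCDH1 and SNAIL arrays lay far below their controls, and the TGFB1 arrays overlapped the parental ones. PFKFB4 was 5.98-fold lower with shCDH1 (log2 difference -2.58 ± 0.11, adjusted p = 6.01e-17), which was the largest fall of any member there, and 2.48-fold lower with SNAIL (-1.31 ± 0.11, 8.34e-11).

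PFKFB3 had 11.02, 10.92 and 10.79 in SNAIL cells, against 12.69, 12.78 and 12.48 in lacZ cells. In shCDH1 cells it had 11.31, 11.27 and 11.15, against 12.69, 12.60 and 12.50 in shNT cells, and in TGFB1 cells 12.56, 12.51 and 12.51, against 12.88, 12.85 and 12.50 in parental cells. The SNAIL and shCDH1 arrays were lower than every other array, and TGFB1 arrays overlapped the parental ones. PFKFB3 was 3.34-fold lower with SNAIL (adjusted p = 4.63e-14) and 2.56-fold lower with shCDH1 (1.02e-11). With TGFB1 it did not pass (log2 difference -0.22 ± 0.10, adjusted p = 0.104), but it did without parental array 3 (-0.34, 0.0101), and so did a dimmer PFKFB3 probe (-0.64, 0.000575 over all probes).

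The pyruvate dehydrogenase kinases PDK1 and PDK3 hold pyruvate back from the mitochondria by switching off pyruvate dehydrogenase. PDK3 had 9.66, 9.65 and 9.23 in shCDH1 cells, against 11.50, 11.34 and 11.50 in shNT cells. It had 11.06, 11.25 and 10.93 in SNAIL cells, against 11.07, 10.84 and 10.87 in lacZ cells, and 10.88, 10.94 and 10.86 in TGFB1 cells, against 10.89, 10.85 and 10.90 in parental cells. The shCDH1 arrays stood far below all others, and the SNAIL and TGFB1 arrays overlapped their controls. PDK3 was 3.82-fold lower with shCDH1 (log2 difference -1.94 ± 0.11, adjusted p = 8.71e-14), and another PDK3 probe also fell there, by a smaller step (-0.74, 2.49e-05 over all probes). The shNT cells exceeded parental cells in PDK3 by 0.57 ± 0.11 (adjusted p = 0.000553), where the other probe gave -0.35 (0.0547 over all probes). PDK1 passed on no route, with differences of 0.17 ± 0.12 with TGFB1, -0.23 ± 0.12 with SNAIL and -0.29 ± 0.12 with shCDH1 (adjusted p = 0.337, 0.165 and 0.0704).

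CA12, a carbonic anhydrase of the cell surface that helps to dispose of acid, rose most with shCDH1, where most members fell. Its levels were 8.91, 8.91 and 9.53 in shCDH1 cells, against 6.99, 6.91 and 6.88 in shNT cells. They were 7.27, 7.24 and 6.94 in TGFB1 cells, against 6.36, 6.86 and 6.49 in parental cells, and 7.22, 7.05 and 7.13 in SNAIL cells, against 7.07, 6.52 and 6.45 in lacZ cells. The shCDH1 arrays stood above all others, while the SNAIL arrays overlapped lacZ array 1 and all other groups lay near the array-wide median of 6.82. CA12 was 4.56-fold higher with shCDH1 (adjusted p = 2.61e-11), 1.49-fold higher with TGFB1 (0.00835) and 1.37-fold higher with SNAIL (0.0318). The TGFB1 call ended without parental array 1 (0.0594), and the SNAIL call without any one of SNAIL arrays 1 and 3 or lacZ arrays 2 and 3 (0.102, 0.067, 0.137 and 0.172). A dimmer CA12 probe (mean level 6.33) was higher with shCDH1 (0.84, adjusted p = 0.000233 over all probes). That probe did not pass with TGFB1 (0.29, 0.269) or SNAIL (0.25, 0.362).

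Of the 5 oxygen sensors and regulators of chromatin or transcription, 3 rose and 1 fell with TGFB1, 1 rose and 3 fell with SNAIL, and 0 rose and 4 fell with shCDH1, so that 4 of 5 were called on each route beside 31.2%, 36.6% and 33.9% of all genes. EGLN1, the main prolyl hydroxylase acting on HIF, had 10.08, 10.06 and 9.97 in TGFB1 cells, against 9.71, 9.38 and 9.37 in parental cells. It had 9.09, 9.05 and 9.17 in SNAIL cells, against 10.04, 10.00 and 10.01 in lacZ cells, and 8.74, 8.53 and 8.59 in shCDH1 cells, against 9.64, 9.82 and 9.74 in shNT cells. The groups overlapped on no route, with TGFB1 arrays above parental and the other 2 altered groups below their controls. EGLN1 changed by 0.55 ± 0.11 with TGFB1 (adjusted p = 0.000199), -0.91 ± 0.11 with SNAIL (9.15e-08) and -1.12 ± 0.11 with shCDH1 (3.07e-09). Since lacZ cells exceeded parental cells by 0.53 ± 0.11, the TGFB1 value set against lacZ cells was 0.02 (adjusted p = 0.924).

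EGLN3, the prolyl hydroxylase that is itself a strong HIF target, fell on every route. Its levels were 6.62, 6.41 and 6.62 in SNAIL cells, against 8.55, 8.47 and 8.55 in lacZ cells. They were 7.24, 7.15 and 7.25 in shCDH1 cells, against 7.92, 8.62 and 8.31 in shNT cells, and 8.12, 8.10 and 8.19 in TGFB1 cells, against 8.75, 8.56 and 8.49 in parental cells. Each altered group lay below all of its control arrays, and the SNAIL arrays lay under the array-wide median, which limits the fold there. EGLN3 was 3.93-fold lower with SNAIL (adjusted p = 1.46e-12), 2.1-fold lower with shCDH1 (2.14e-07) and 1.38-fold lower with TGFB1 (0.00772, or 0.0524 without parental array 1).

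ANKRD37, an ankyrin repeat gene induced by hypoxia, had 9.70, 9.64 and 9.93 in TGFB1 cells, against 9.07, 9.40 and 9.25 in parental cells. It had 10.56, 10.29 and 10.65 in SNAIL cells, against 9.71, 9.84 and 9.95 in lacZ cells, and 9.53, 9.53 and 9.68 in shCDH1 cells, against 10.24, 10.17 and 10.45 in shNT cells. TGFB1 and SNAIL arrays lay above their controls and shCDH1 arrays below theirs, and parental arrays were lowest of all. The differences were 0.52 ± 0.12 with TGFB1 (adjusted p = 0.00132), 0.67 ± 0.12 with SNAIL (5.48e-05) and -0.71 ± 0.12 with shCDH1 (3e-05). Both control viruses also raised ANKRD37 over parental cells, by 0.59 ± 0.12 with lacZ and 1.05 ± 0.12 with shNT, so that against shNT cells the TGFB1 value was lower (-0.53, adjusted p = 0.000889).

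KDM3A, a histone demethylase of the HIF target set, moved little. It had 10.56, 10.54 and 10.58 in TGFB1 cells, against 10.10, 10.32 and 10.23 in parental cells. It had 10.23, 10.20 and 10.14 in SNAIL cells, against 10.35, 10.55 and 10.48 in lacZ cells, and 10.08, 10.04 and 9.69 in shCDH1 cells, against 10.40, 10.32 and 10.44 in shNT cells. No groups overlapped, with TGFB1 above and the other altered groups below their controls, but the gaps between groups were narrow. The differences were 0.34 ± 0.11 (adjusted p = 0.0143, or 0.0773 without parental array 1), -0.27 ± 0.11 (0.0468) and -0.45 ± 0.11 (0.00136). The SNAIL call ended without any one of 5 of its 6 arrays (adjusted p = 0.071, 0.0931 and 0.132 without SNAIL arrays 1, 2 and 3, and 0.166 and 0.106 without lacZ arrays 2 and 3). MXI1, a MYC antagonist, passed on no route and was higher than in parental cells with both control viruses (0.52 ± 0.12 with lacZ and 0.83 ± 0.12 with shNT, adjusted p = 0.00327 and 1.72e-05).

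The secreted vascular factors rose with TGFB1 and fell with shCDH1. VEGFA, the main growth factor of blood vessels, had 10.01, 9.81 and 9.71 in TGFB1 cells, against 9.13, 9.04 and 8.65 in parental cells. It had 7.43, 7.62 and 7.47 in SNAIL cells, against 8.75, 9.12 and 8.82 in lacZ cells, and 7.14, 7.21 and 7.31 in shCDH1 cells, against 9.24, 9.18 and 9.26 in shNT cells. The 3 control groups lay close together, the TGFB1 arrays above all of them, and the SNAIL and shCDH1 arrays well below. VEGFA was 1.87-fold higher with TGFB1 (adjusted p = 2.57e-06), 2.62-fold lower with SNAIL (9.83e-10) and 4.02-fold lower with shCDH1 (7.19e-13). Another VEGFA probe moved the same way, by 0.77, -0.90 and -1.28, and the dimmest one, under the array-wide median, by -0.031, 0.032 and 0.056.

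ADM encodes adrenomedullin, a peptide that widens vessels. It had 12.71, 12.53 and 12.89 in TGFB1 cells, against 12.23, 12.14 and 12.04 in parental cells. It had 13.34, 13.39 and 13.16 in SNAIL cells, against 12.55, 12.99 and 12.54 in lacZ cells, and 11.06, 11.19 and 11.38 in shCDH1 cells, against 12.83, 13.18 and 12.87 in shNT cells. The shCDH1 arrays were the lowest of all 18, and the TGFB1 and SNAIL arrays lay above their own controls. ADM changed by 0.57 ± 0.12 with TGFB1 (adjusted p = 0.000359), 0.60 ± 0.12 with SNAIL (0.000145) and -1.75 ± 0.12 with shCDH1 (1.99e-12). Both control viruses exceeded parental cells (0.56 ± 0.12 with lacZ and 0.82 ± 0.12 with shNT), and against shNT cells the TGFB1 value was -0.25 (adjusted p = 0.102).

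Among the 4 mitophagy and stress genes, 1 rose with TGFB1, and 2 fell with SNAIL and 3 with shCDH1. Of all genes, 31.2%, 36.6% and 33.9% were called on these routes. BNIP3L, a receptor that marks mitochondria for removal, had 12.70, 12.49 and 12.72 in TGFB1 cells, against 12.32, 12.38 and 12.26 in parental cells. It had 12.43, 12.27 and 12.14 in shCDH1 cells, against 12.51, 12.70 and 12.55 in shNT cells, and 12.57, 12.54 and 12.59 in SNAIL cells, against 12.79, 12.73 and 12.53 in lacZ cells. TGFB1 arrays lay above the parental ones, shCDH1 arrays lay just below the shNT ones, and SNAIL and lacZ arrays overlapped. The differences were 0.32 ± 0.09 (adjusted p = 0.00609), -0.31 ± 0.09 (0.00651) and -0.12 ± 0.09 (0.352). Its relative BNIP3 passed on no route, with a largest difference of -0.14 ± 0.06 with shCDH1 (adjusted p = 0.102).

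NDRG1, a gene raised by hypoxia and other stresses, was 2.1-fold lower with SNAIL (adjusted p = 1.27e-07) and 2.44-fold lower with shCDH1 (6.58e-09). Both falls were measured from controls that stood above parental cells, by 0.82 ± 0.13 in lacZ and 1.00 ± 0.13 in shNT cells. The mean level was 10.88 ± 0.21 in SNAIL and 10.85 ± 0.11 in shCDH1 cells, and 11.13 ± 0.11 in parental cells (mean ± SD, n = 3). DDIT4, an inhibitor of mTOR signalling, was 2.55-fold lower with SNAIL (adjusted p = 5.31e-14) and 1.35-fold lower with shCDH1 (5.09e-05).

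Of the collagen prolyl hydroxylases, which need oxygen to stabilise collagen, P4HA2 gave the largest rise of any member with TGFB1. P4HA2 had 12.57, 12.39 and 12.76 in TGFB1 cells, against 10.87, 10.91 and 10.91 in parental cells. It had 11.32, 11.07 and 11.27 in SNAIL cells, against 11.27, 11.27 and 11.32 in lacZ cells, and 11.32, 11.44 and 11.09 in shCDH1 cells, against 11.04, 11.29 and 10.95 in shNT cells. The TGFB1 arrays stood above all others, and the other pairs of groups overlapped. P4HA2 was 3.2-fold higher with TGFB1 (log2 difference 1.68 ± 0.11, adjusted p = 1.14e-12), and stayed called against lacZ (1.29) and shNT cells (1.48). This probe did not pass with SNAIL (-0.07 ± 0.11, adjusted p = 0.709) or shCDH1 (0.19 ± 0.11, 0.201), though without shCDH1 array 3 the shCDH1 difference was 0.29 (0.0496). A dim P4HA2 probe (mean level 7.10) was higher with SNAIL (0.52, adjusted p = 0.0287 over all probes) and shCDH1 (0.78, 0.00119).

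P4HA1, the more common catalytic subunit, had 11.45, 11.55 and 11.62 in TGFB1 cells, against 11.16, 10.99 and 11.06 in parental cells. It had 11.12, 11.12 and 10.95 in shCDH1 cells, against 11.58, 11.48 and 11.37 in shNT cells, and 11.58, 11.62 and 11.55 in SNAIL cells, against 11.44, 11.59 and 11.23 in lacZ cells. TGFB1 arrays lay above the parental arrays and shCDH1 arrays below the shNT arrays, while SNAIL and lacZ arrays overlapped. The differences were 0.47 ± 0.10 (adjusted p = 0.00036), -0.41 ± 0.10 (0.00118) and 0.16 ± 0.10 (0.225). Both control viruses exceeded parental cells in P4HA1, by 0.35 ± 0.10 with lacZ (adjusted p = 0.0123) and 0.41 ± 0.10 with shNT (0.00311). The TGFB1 value was 0.12 against lacZ cells (0.444), 0.06 against shNT cells (0.677) and 0.22 against all 3 control groups (0.0339).

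**Figure D4:**
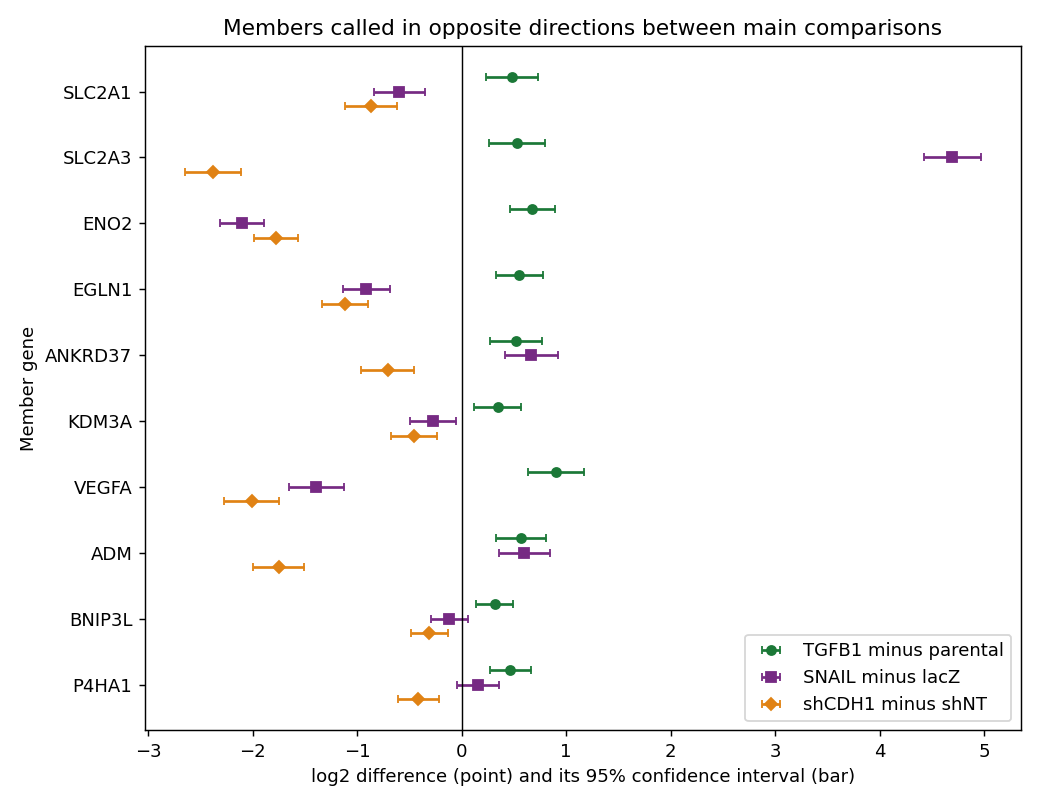
Log2 difference and its 95% confidence interval in the 3 main comparisons (horizontal axis) for the 10 members called in opposite directions on 2 of the 3 routes (vertical axis). TGFB1 values lie right of 0 and shCDH1 values left of 0 for all 10, while SNAIL lies right of 0 for SLC2A3, ANKRD37, ADM and P4HA1. Values are after quantile normalization, and no TGFB1 call of these 10 was kept without normalization between arrays.

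The effects of the routes were also set against each other over all members, each effect being measured from its own control. The TGFB1 effect was above the SNAIL effect for 15 members and below it for 1 (16 of 35 called, where 29.3% of all genes were called). It was above the shCDH1 effect for 22 and below it for 1 (23 called, beside 30.1% of all genes). The SNAIL effect was above the shCDH1 effect for 11 and below it for 6 (17 called, beside 31.9% of all genes).

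The control viruses were set against parental cells to see how far the controls themselves differ. With lacZ, 9 members rose and 2 fell, where 13.8% of all genes were called, 7.04% higher and 6.72% lower. With shNT, 12 rose and 1 fell, where 20.8% of all genes were called, 10.2% higher and 10.6% lower. All 3 virus arrays lay on one side of the parental arrays for 15 members with lacZ, 11 above and 4 below (28.6% of all genes), and for 18 with shNT, 16 above and 2 below (32.6%). These comparisons share the parental arrays. ANKRD37 was 1.51-fold higher with lacZ and 2.07-fold higher with shNT, adjusted p = 0.000862 and 5.21e-07. NDRG1 was 1.76-fold higher with lacZ and 2.01-fold higher with shNT, adjusted p = 3.62e-05 and 2.89e-06. SLC2A3 differed in sign, at -0.40 ± 0.13 in lacZ cells (adjusted p = 0.043) and 0.87 ± 0.13 in shNT cells (2.44e-05), the lacZ call ending without any one of 5 of its 6 arrays (adjusted p = 0.102, 0.0558 and 0.153 without parental arrays 1, 2 and 3, and 0.279 and 0.085 without lacZ arrays 2 and 3). Without normalization 1 call was kept with lacZ (NDRG1) and 3 with shNT (NDRG1, ADM and ANKRD37), where 5.44% and 9.71% of all genes were called.

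Set against other controls, the TGFB1 group gave other splits. Against lacZ cells 7 members rose and 4 fell, against shNT cells 6 rose and 9 fell, and against all 3 control groups together 10 rose and 4 fell. These are 11, 15 and 14 of 35 members, beside 27.3%, 37.5% and 35.1% of all genes called, shares near the background. PFKM, VEGFA and P4HA2 were called higher and HK2 lower against each of parental, lacZ and shNT cells.

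The transcripts of the HIF pathway itself were measured beside the members. Of 15 regulators, 0 rose and 2 fell with TGFB1, 6 rose and 2 fell with SNAIL, and 3 rose and 4 fell with shCDH1. These are 2, 8 and 7 of 15, beside 31.2%, 36.6% and 33.9% of all genes. EPAS1, which encodes the alpha subunit HIF2A, averaged 7.67 ± 0.30 in shCDH1 cells and 11.90 ± 0.18 in shNT cells (mean ± SD, n = 3), a 18.7-fold loss (log2 difference -4.23 ± 0.12, adjusted p = 1.28e-20). With SNAIL it averaged 11.35 ± 0.03, and 12.00 ± 0.09 in lacZ cells (-0.65 ± 0.12, 5.41e-05), and with TGFB1 it did not pass (0.29 ± 0.12, 0.0627). HIF1A, the gene of the common alpha subunit, fell on all 3 routes, by 0.52 ± 0.11 with TGFB1, 0.45 ± 0.11 with SNAIL and 1.39 ± 0.11 with shCDH1 on the log2 scale (adjusted p = 0.000285, 0.00113 and 2.91e-11). HIF3A, another alpha subunit gene, averaged 6.76 ± 0.20 in shCDH1 cells and 6.77 ± 0.05 in shNT cells, near the array-wide median. Whether any of these transcripts bears on the direction of the members was not tested.

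ARNT, the shared partner of the alpha subunits, was close to the array-wide median in every group and passed with shCDH1 only (-0.31 ± 0.12, adjusted p = 0.0376). Its relative ARNT2 averaged 9.27 ± 0.14 in SNAIL cells and 6.74 ± 0.21 in lacZ cells, a 5.76-fold rise from a level under the array-wide median (adjusted p = 2.85e-15), and changed by -0.90 ± 0.13 with shCDH1 (1.6e-06). VHL changed by 0.31 ± 0.10 with SNAIL (adjusted p = 0.0159) and did not pass with TGFB1 (0.13 ± 0.10) or shCDH1 (-0.07 ± 0.10). CITED2, which competes with HIF for its coactivators, fell with TGFB1 (-0.71 ± 0.17, adjusted p = 0.00235) and rose with SNAIL (1.62 ± 0.17, 1.6e-08) and shCDH1 (2.06 ± 0.17, 2.38e-10). HIF1AN, the asparagine hydroxylase that also restrains HIF, rose with SNAIL (0.68 ± 0.11, 1.49e-05) and shCDH1 (0.38 ± 0.11, 0.00851).

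Called genes among other hypoxia targets were mostly higher with TGFB1 and mostly lower with SNAIL and shCDH1. Of 32 measured, 13 rose and 4 fell with TGFB1, 6 rose and 14 fell with SNAIL, and 6 rose and 18 fell with shCDH1, with median changes of 0.14, -0.20 and -0.33. These are 17, 20 and 24 called, beside 31.2%, 36.6% and 33.9% of all genes. ANGPTL4, a secreted lipase inhibitor, averaged 13.02 ± 0.07 in TGFB1 cells and 9.94 ± 0.10 in parental cells, 8.45-fold more (adjusted p = 4.83e-17), and was 2.68-fold lower with SNAIL (2.67e-10). LOX, which cross-links collagen, was 8.3-fold higher with TGFB1 (adjusted p = 5.21e-17), but it was also 3.4-fold higher in lacZ and 2.81-fold higher in shNT than in parental cells, where its level lay under the array-wide median. TMEM45A, a membrane protein gene, was 13.1-fold higher with TGFB1 (adjusted p = 4.07e-19) and 10.5-fold higher with SNAIL (1.48e-18), and 3.42-fold lower with shCDH1 (1.73e-12), to a level under that median. With shCDH1 the largest falls were those of PLAUR, the urokinase receptor (-3.29 ± 0.16, adjusted p = 1.41e-15), STC1, the hormone stanniocalcin (-2.97 ± 0.11, 1.25e-17), and ERO1A, an oxidase of the endoplasmic reticulum (-2.36 ± 0.11, 1.3e-15). PLAUR and STC1 rose with TGFB1 (0.94 ± 0.16 and 1.25 ± 0.11, adjusted p = 2.81e-05 and 1.01e-09), while ERO1A did not pass there (0.22 ± 0.11, 0.149).

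Of 43 other genes of glucose metabolism, 8 rose and 11 fell with TGFB1, 9 rose and 15 fell with SNAIL, and 12 rose and 13 fell with shCDH1, with median changes of 0.00, -0.09 and -0.02. These are 19, 24 and 25 called, beside 31.2%, 36.6% and 33.9% of all genes. SLC2A10, another glucose transporter, followed SLC2A3 in sign, with a 11.7-fold rise with SNAIL (adjusted p = 4.45e-20) and a 10.3-fold fall with shCDH1 (1.53e-19), to a level under the array-wide median. SLC2A6, a transporter of lysosomes, was 5.6-fold higher with TGFB1 (adjusted p = 2.29e-15) and 4.48-fold higher with SNAIL (2.73e-14). HKDC1, a hexokinase domain gene, was 15.1-fold lower with SNAIL (2.74e-20) and 2.07-fold lower with shCDH1 (2.34e-08). PDK4, another kinase of pyruvate dehydrogenase, was lower with TGFB1 (-2.34 ± 0.17, adjusted p = 7.74e-12) and SNAIL (-2.18 ± 0.17, 2.19e-11), to levels under the array-wide median, and higher with shCDH1 (1.13 ± 0.17, 3.54e-06), where PDK3 fell. PDHA1, the catalytic subunit of the dehydrogenase that these kinases act on, rose with TGFB1 (1.11 ± 0.12), SNAIL (0.64 ± 0.12) and shCDH1 (1.28 ± 0.12), with adjusted p of at most 5.86e-05. PKM, the pyruvate kinase of most tissues, changed by -0.18 ± 0.09 with TGFB1 (adjusted p = 0.133), -0.37 ± 0.09 with SNAIL (0.00173) and -0.27 ± 0.09 with shCDH1 (0.0186).

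**Figure D5:**
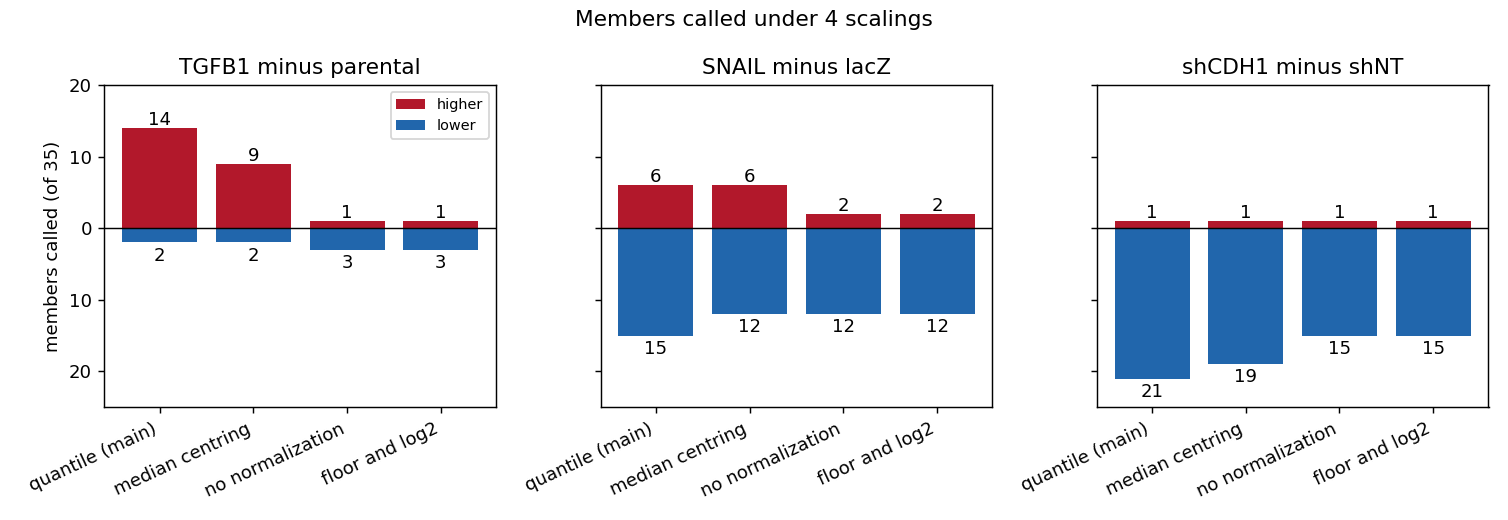
Number of the 35 members called higher (red, upward bars) and lower (blue, downward bars) in the 3 main comparisons under 4 scalings of the arrays. With TGFB1 the 14 higher members of quantile normalization become 9 with median centring and 1 without normalization, while 15 or more members stay lower with shCDH1 under all 4.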

How the data were processed

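Messenger RNA of HCC827 cells was measured on 18 Illumina bead arrays, after labelling of complementary RNA with biotin per the labels' protocols. The deposited intensity values (47323 probes) are linear and, judged by the array medians, not normalized between arrays; the scanner and its software are not given in the sources used here, and detection was not assessed. Background was corrected by normexp in limma with an offset of 50, and the log2 values were then normalized by quantiles over all arrays. The 2 probes with a 0 were left out. Symbols came from the platform annotation, and all 35 members' symbols matched RefSeq (GRCh38.p14) by gene identifier. A gene is its probe with the highest mean, so every change rests on 1 probe (18 members have several).

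One limma 3.58.1 model (R 4.3.3) with 6 group means, 12 residual degrees of freedom and an intensity trend gave all comparisons; p-values are two-sided and adjusted by Benjamini-Hochberg over 20046 genes. Precision is limited by having 3 arrays in each group. Figures and promoter searches used Python 3.11.15.

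Per-array values are given for the 4 largest called rises and falls per main comparison and for members called in opposite directions. From the other lists (96 genes, 90 measured), up to 4 called genes with the largest change per main comparison may be named, and HIF1A, EPAS1, ARNT, VHL and PKM always. Members and lists were chosen with earlier results of these data known. Alternatives were other normalizations, offsets, filters, probe rules, moderation, controls, a size threshold of 0.5, replicate blocks, and each array left out.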

Additional observations from a re-analysis of the deposited data

Results flagged for a closer look

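For members called in opposite directions on 2 routes, the difference of the effects in the limma model is given as a description, since that choice itself makes the difference large. Between TGFB1 and SNAIL, whose effects share no arrays, ENO2 differed by 2.78 on the log2 scale, VEGFA by 2.29, EGLN1 by 1.46, SLC2A1 by 1.08 and KDM3A by 0.62. Between TGFB1 and shCDH1, VEGFA differed by 2.91, SLC2A3 by 2.91, ENO2 by 2.45, ADM by 2.32, EGLN1 by 1.67, SLC2A1 by 1.35, ANKRD37 by 1.23, P4HA1 by 0.88, KDM3A by 0.80 and BNIP3L by 0.62. Between SNAIL and shCDH1, SLC2A3 differed by 7.07, ADM by 2.35 and ANKRD37 by 1.38. Without normalization between arrays, opposite calls were kept only for SLC2A3 and ADM, between SNAIL and shCDH1.

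Over all 35 members, the TGFB1 and SNAIL effects differed for 16, the TGFB1 and shCDH1 effects for 23, and the SNAIL and shCDH1 effects for 17. Of all genes, 29.3%, 30.1% and 31.9% were called for these differences. Each effect is measured from its own control. The control viruses differ from parental cells in 11 (lacZ) and 13 (shNT) members, beside 13.8% and 20.8% of all genes.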

How the results depend on the processing

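Scaling mattered most. With median centring 6 members were called for lacZ and 8 for shNT against parental cells. Without normalization 4 were called with TGFB1, 1 with lacZ, 3 with shNT, 13 for TGFB1 minus shCDH1 and 11 for SNAIL minus shCDH1, and with a floor and log2 alone 4, 1, 3, 12 and 10, and 10 for TGFB1 minus SNAIL. The TGFB1 differences of BNIP3L and KDM3A turned to -0.030 and -0.057 without normalization and to -0.036 and -0.079 with the floor, which also turned PFKM (-0.011) and CA12 (-0.0055), and PDK1 (-0.19) and EGLN3 (-0.12) for TGFB1 minus shCDH1. Of all higher or lower calls with TGFB1, 49.6% were higher, against 17.1% without normalization and 12.9% with the floor.

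With the mean of all probes 8 members were called for shNT, and with equally described arrays averaged 7 for lacZ. With a change of at least 0.5 also required, 9 were called with TGFB1, 6 with lacZ and 8 with shNT. The most variable probe turned PFKFB3 for shNT (0.55) and LDHA for TGFB1 minus SNAIL (0.55).

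The control mattered for TGFB1. Against lacZ cells GPI (-0.49), BNIP3L (-0.050) and ANKRD37 (-0.071) turned, against shNT cells SLC2A3 (-0.34), ALDOC (-0.52), ENO2 (-0.070), PDK3 (-0.55), ADM (-0.25), ANKRD37 (-0.53) and MXI1 (-0.59), and against all 3 controls ANKRD37 (-0.027).

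Other probes, taken one at a time after the data were seen, turned HK1 with SNAIL (-0.0017), PFKL with shCDH1 (0.058) and shNT (-0.085), PFKFB3 with shNT (0.55), PDK3 with lacZ (-0.43) and shNT (-0.35), P4HA1 with shCDH1 (0.036) and shNT (-0.19), P4HA2 with SNAIL (0.52), MXI1 with lacZ (-0.11) and shNT (-0.0079 and -0.076), and VEGFA with TGFB1 (-0.031), SNAIL (0.032) and shCDH1 (0.056). The causes were not tested.

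With each array left out, 13 to 17 members were called with TGFB1, 18 to 20 with SNAIL, 21 to 23 with shCDH1, 8 to 11 with lacZ, 9 to 15 with shNT, 16 to 17 for TGFB1 minus SNAIL, 22 to 24 for TGFB1 minus shCDH1 and 14 to 17 for SNAIL minus shCDH1. Equally numbered arrays deviated together only weakly (r from -0.13 to 0.22), but r was highest for the own number in 12 of 15. The main model did not pair arrays by number, and whether equal numbers mark arrays handled together was not tested. With the replicate block 17, 21 and 22 members were called on the 3 routes, against 16, 21 and 22 without it. Under the alternatives not named here, these counts stayed within 1.5 times. Signals near the array-wide median limit CA12, PDK1, SLC2A3 with shCDH1, EGLN3 with SNAIL and the dim probes.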
